A study of Bos taurus with 41 samples.

Results

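The translation initiation factors of the day 16 bovine conceptus were taken as the genes whose symbol starts with EIF1 to EIF6, leaving out the EIF2AK kinases and the EIF4EBP proteins, which share the prefix but act on the factors. The rule found 44 of the 16149 genes in the conceptus count table: 4 EIF1, 5 EIF2, 5 EIF2B, 13 EIF3, 12 EIF4 and 5 EIF5 or EIF6 genes. All 44 passed the filter on low counts, and the smallest count of any of them in any library was 147. The RefSeq gene table holds 46 genes that meet the rule, of which 44 matched by symbol, and the other 2 (EIF4E1B and EIF1AY) were not analysed here. Conceptuses were flushed from Angus-Holstein heifers and were either in vitro produced (IVP), grown from abattoir oocytes fertilised in vitro and transferred on day 7 to such heifers as recipients, or in vivo derived (IVD) after artificial insemination of the heifers themselves with semen of the same bull, so the source of the oocytes differs between IVP and IVD. Sections of each were held for 12 h in RPMI medium with dialyzed serum, on an intercaruncular endometrial explant of a cyclic day 16 heifer (co-culture) or without endometrium (mono-culture). There were 7 IVP co-culture libraries from 4 conceptuses, 5 IVP mono-culture libraries from 5, 9 IVD co-culture libraries from 7 and 8 IVD mono-culture libraries from 8, as the sample labels give them, and these mono-culture numbers differ from those in the study's methods. Of the 13 conceptuses, 11 were in both cultures (4 IVP and 7 IVD) and 5 gave 2 co-culture sections, and IVP conceptuses 62a and 62b came from 1 recipient, so sections are not independent animals, and p-values from fits and permutations over libraries with no conceptus term treat them as if they were. By the sample titles, several conceptuses also shared the uterus that gave their explants. Fits and tests that pair sections by conceptus do not account for this sharing.

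Initiation brings a ribosome to the start codon of a messenger RNA. The heterotrimer eIF2 carries the initiator tRNA to the small ribosomal subunit and is recharged with GTP by eIF2B. The largest of the factors, eIF3, binds the small subunit and links it to the messenger. The eIF4F complex, made of a cap-binding protein (EIF4E), a scaffold (EIF4G) and an RNA helicase (EIF4A), loads the messenger through its cap, EIF1 and EIF1A guard start codon selection, and EIF5, EIF5B and EIF6 act on GTP hydrolysis and on the joining of the large subunit. The elongating ruminant conceptus is mostly trophectoderm that secretes large amounts of protein, interferon tau among them.

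Counts per library ran from 58583647 to 104436922, and the 44 factors took 1.01 to 1.35% of them. Levels are CPM, counts scaled to a common library size, on library totals scaled by TMM, edgeR's trimmed-mean scaling, and were not divided by transcript length, so levels are compared between groups and never between genes. The log2 TMM factor averaged -0.19 ± 0.20 in IVP and -0.04 ± 0.17 in IVD co-culture, against 0.11 ± 0.22 in IVP and 0.14 ± 0.11 in IVD mono-culture (SD, n = 7, 9, 5 and 8), and in 9 of 11 conceptuses the co-culture factor was the lower. All 10 trophectoderm markers were detected, with medians of their summed level of 66914.5 CPM in IVP co-culture, 28750.5 CPM in IVP mono-culture, 33459.8 CPM in IVD co-culture and 23591.5 CPM in IVD mono-culture. Of 6 endometrial epithelium markers only FOXA2 and MUC1 are in the table (SERPINA14, OXTR, ESR1 and PAEP are not), and their sums ran from 81.0 to 228 CPM in IVP co-culture, 69.98 to 157 CPM in IVP mono-culture, 87.6 to 325 CPM in IVD co-culture and 71.0 to 114 CPM in IVD mono-culture. Of 4 red cell markers 3 are in the table, with sums of 2.98 to 55.5, 1.55 to 54.8, 1.65 to 71.1 and 1.43 to 9.18 CPM in the same groups. Of 6 endometrial stroma markers 4 are in the table (5.56 to 25.2, 7.49 to 75.7, 5.95 to 68.0 and 5.42 to 105.7 CPM), of 4 leukocyte markers 3 without PTPRC (2.35 to 11.2, 4.38 to 18.97, 2.65 to 11.6 and 1.80 to 25.1 CPM), and of 6 hypoblast markers 5 (1411 to 5967, 1482 to 3482, 1351 to 8593 and 1737 to 5539 CPM). In the same order of groups, median sums were 137, 90.2, 163 and 100.1 CPM for epithelium and 23.9, 12.8, 35.3 and 3.34 CPM for red cell markers. FOXA2 and MUC1 were thus also detected in mono-culture, which held no explant, so their level alone does not mark endometrial tissue. In the average co-culture change tested below, 1 of 2 epithelium, 2 of 3 red cell and 2 of 10 trophectoderm markers passed as higher. None of the stroma, leukocyte and hypoblast markers passed. The part of the TMM factor or of any of these markers in the results below was not tested, and in bulk tissue fewer cells of a type and less RNA per cell cannot be told apart.

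Co-culture with endometrium went with higher transcript levels of eIF3 subunits and of the helicase EIF4A2 with its cofactors, against lower levels of the cap-binding paralog EIF4E2 and of EIF6. The EIF6 result was unstable, since its call ended in 17 of 29 omissions of 1 library and in 6 of 12 other settings. The EIF4E2 call ended in 6 of 29 omissions and in 3 of 12 other settings, the conceptus block among them. Averaged over the IVP and IVD co- against mono-culture changes, 12 of the 44 factors rose and 2 fell in edgeR's quasi-likelihood test at a Benjamini-Hochberg FDR of 0.05, where 18.9% of all 15942 genes tested passed (9.16% higher and 9.69% lower). The genes that rose were EIF2A, EIF3CL, EIF3D, EIF3E, EIF3H, EIF3I, EIF3K, EIF3M, EIF4A1, EIF4A2, EIF4B and EIF4H, and those that fell were EIF4E2 and EIF6. By factor, 7 of 13 EIF3 genes rose, 4 of 12 EIF4 genes rose and 1 fell, 1 of 5 EIF2 genes rose, 1 of 5 EIF5 and EIF6 genes fell, and 0 of 4 EIF1 and 0 of 5 EIF2B genes passed (unadjusted p under 0.05 in 2 and 1 of them). The median log2 change was 0.17 over the 44 factors, with 32 positive, against -0.04 over all genes tested, of which 46.6% were positive. With the conceptus as a replicate block, 9 rose and 0 fell (13.4% of all genes passed, 6.32% higher and 7.06% lower), and when the log2 TMM factor entered as covariate 0 of the 14 calls were left while the calls over all genes fell to 2.

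**Figure D1:**
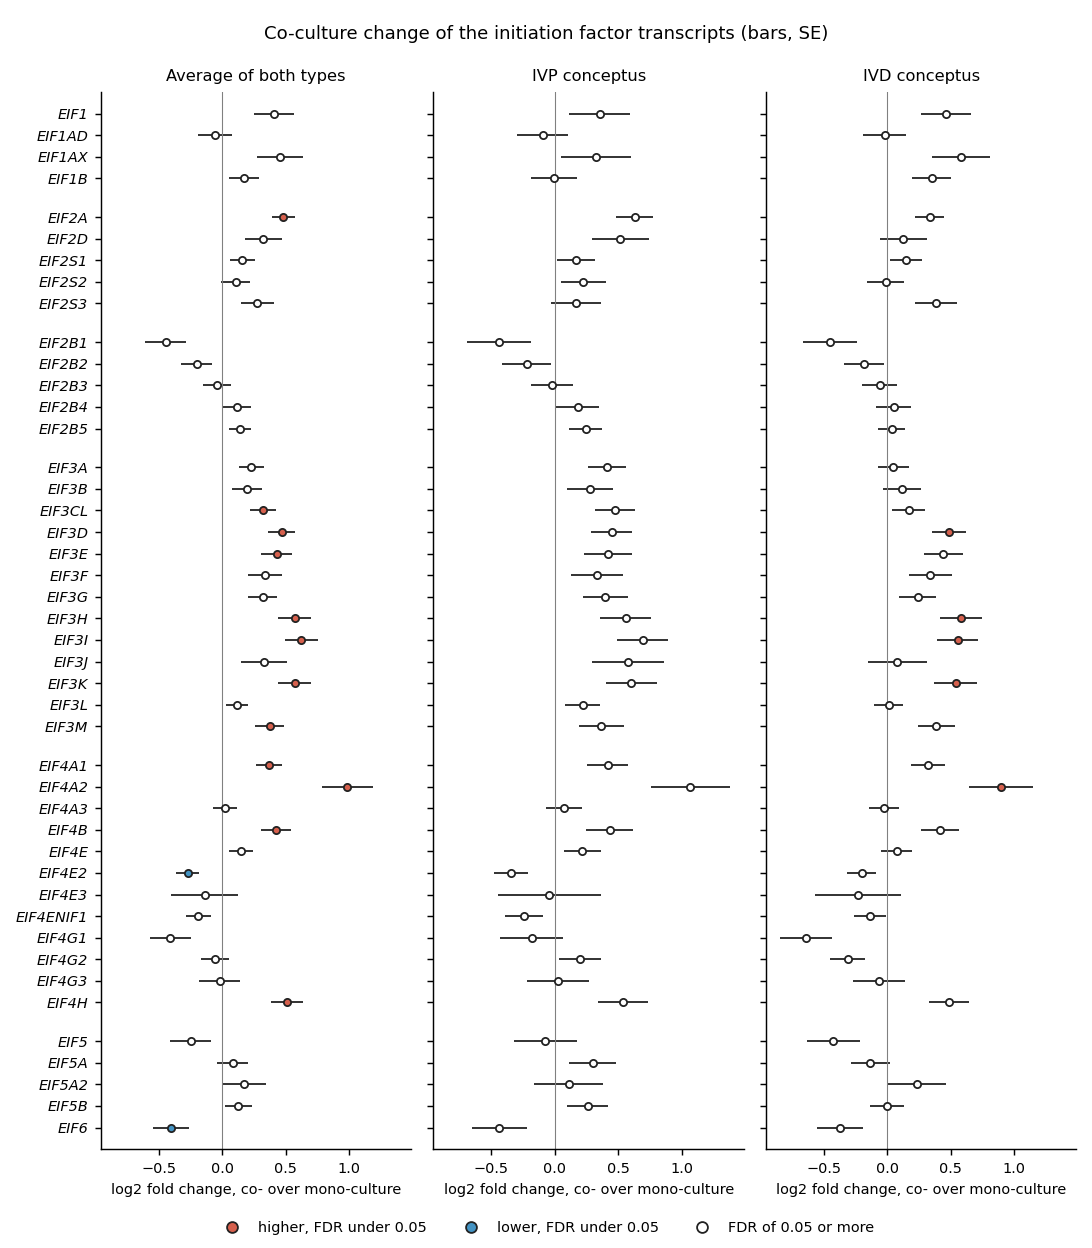
Log2 fold change (x axis) of each of the 44 factors (rows, by factor group) for the average co-culture change and for co- against mono-culture in IVP and in IVD conceptuses, with bars of 1 SE and filled points past an FDR of 0.05. All 13 EIF3 genes lie to the right of 0 in the 3 panels under TMM scaling (10, 11 and 8 of them on average, in IVP and in IVD tissue with library totals alone), and EIF2B1, EIF4E2, EIF4G1, EIF5 and EIF6 lie to the left of it.

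Within each type the calls were fewer. In IVD tissue (9 co- against 8 mono-culture libraries) EIF3D, EIF3H, EIF3I, EIF3K and EIF4A2 rose and 0 factors fell, where 6.33% of all genes passed (3.11% higher and 3.22% lower), and 43.2% of the factors against 23.5% of all genes had an unadjusted p under 0.05. The median IVD change of the factors was 0.10 with 28 positive, against -0.02 over all genes with 48.1% positive. In IVP tissue (7 against 5) 0 factors and 0% of all genes passed in edgeR, and 16 of 44 factors (36.4%) and 18.3% of all genes had an unadjusted p under 0.05. DESeq2 called 3 factors, among 321 of all genes, and limma voom 0 factors and 0 of all genes. The IVP median was 0.25 with 33 positive, against -0.05 over all genes with 46.1% positive, and the smallest adjusted p of a factor was 0.142, shared by EIF2A, EIF3I and EIF4A2. The 5 IVD calls all ended with the conceptus as a replicate block (edgeR adjusted p 0.0810 to 0.140), which left 1.29% of all genes called. For 0 of the 44 factors did the libraries of the compared groups separate completely, where among all genes 0.157% did so higher and 0.502% lower in IVP co-culture, 0.358% and 0.753% in IVD co-culture, 0.0125% and 0.0125% in IVP against IVD co-culture, and 0.0188% and 0.0815% in IVP against IVD mono-culture.

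All 13 eIF3 genes had positive changes in IVP tissue, in IVD tissue and on average, with medians of 0.42, 0.34 and 0.34, although with libraries scaled by their totals alone EIF3B and EIF3L turned negative in IVP tissue, EIF3A, EIF3B, EIF3CL, EIF3J and EIF3L in IVD tissue and EIF3A, EIF3B and EIF3L on average. Their summed level was 2946, 4135 and 5077 CPM (lowest, median and highest library, the order used for every group of more than 5 libraries) in IVP co-culture and 2726, 3000.2 and 3401 CPM in IVP mono-culture. The sum was 2931, 3353 and 5119 CPM in IVD co-culture and 2596, 2975 and 3112 CPM in IVD mono-culture. Of the 8 subunits with PCI or MPN domains, which form the core of the complex in mammals (A, CL, E, F, H, K, L and M), 5 rose on average, and of B, D, G, I and J 2 rose.

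EIF3I, a beta-propeller subunit that binds EIF3B, had 170.1, 268 and 363 CPM in IVP co-culture against 141, 152, 157, 163 and 190.1 CPM in IVP mono-culture. Its IVD libraries held 169, 189 and 337 CPM in IVD co-culture against 129.8, 152 and 172 CPM in IVD mono-culture. The co-culture groups reached higher, and 4 of 7 IVP and 6 of 9 IVD co-culture libraries lay above the highest mono-culture library of their type, with both pairs of groups still overlapping. The log2 change of EIF3I was 0.69 (SE 0.20) in IVP tissue, 0.56 (SE 0.16) in IVD tissue and 0.62 (SE 0.13) on average (edgeR adjusted p = 0.00262). EIF3H, an MPN-domain subunit, had 240.3, 393 and 459 CPM in IVP co-culture against 189, 194, 257, 258 and 303 CPM in IVP mono-culture. For EIF3H in IVD tissue the values were 247, 310.3 and 576 CPM in IVD co-culture against 175, 219 and 268 CPM in IVD mono-culture. Here 4 of 7 IVP and 6 of 9 IVD co-culture libraries lay above the highest mono-culture library of their type. The change of EIF3H was 0.56 (SE 0.20) in IVP tissue, 0.58 (SE 0.17) in IVD tissue and 0.57 (SE 0.13) on average (edgeR adjusted p = 0.00479). EIF3K, a small PCI-domain subunit of the outer core, had 135, 226 and 296 CPM in IVP co-culture against 131, 134, 145, 150.1 and 162 CPM in IVP mono-culture. IVD sections gave EIF3K 142, 176 and 327 CPM in IVD co-culture against 115, 128 and 149 CPM in IVD mono-culture. For this gene 5 of 7 IVP and 7 of 9 IVD co-culture libraries lay above the highest mono-culture library of their type, and the change was 0.60 (SE 0.20) in IVP tissue, 0.54 (SE 0.17) in IVD tissue and 0.57 (SE 0.13) on average (edgeR adjusted p = 0.00479). EIF3D, known in human cells to bind the cap of some messengers itself, had 381, 583 and 620.4 CPM in IVP co-culture against 305, 329, 390.4, 406 and 450.1 CPM in IVP mono-culture. Its IVD values were 396, 474 and 699 CPM in IVD co-culture against 284, 360.5 and 409 CPM in IVD mono-culture. Both co-culture groups overlapped their controls, and 4 of 7 IVP and 8 of 9 IVD co-culture libraries lay above the highest mono-culture library of their type. EIF3D changed by 0.45 (SE 0.16) in IVP tissue, 0.49 (SE 0.13) in IVD tissue and 0.47 (SE 0.10) on average (edgeR adjusted p = 0.00413).

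These 4 subunits were also the eIF3 genes that rose in IVD tissue alone, with edgeR adjusted p of 0.0409 (EIF3I), 0.0365 (EIF3H), 0.0497 (EIF3K) and 0.0313 (EIF3D). Their IVD calls lay close to the threshold. The EIF3D call ended without any 1 of IVD co-culture replicates 1, 7 and 8 and IVD mono-culture replicates 1, 4 and 6 (adjusted p up to 0.0624), and that of EIF3H without any 1 of IVD co-culture replicates 1, 7 and 8 and IVD mono-culture replicates 1, 2, 3, 4, 6 and 7 (up to 0.0709). The EIF3I call ended without any 1 of IVD co-culture replicates 1, 7, 8 and 9 and IVD mono-culture replicates 1, 2, 3, 4, 5, 6, 7 and 8 (up to 0.0813), and that of EIF3K without any 1 of IVP co-culture replicate 5, IVP mono-culture replicates 1, 2, 4 and 5, IVD co-culture replicates 1, 7, 8 and 9 and IVD mono-culture replicates 1, 2, 3, 4, 5, 6, 7 and 8 (up to 0.102). Under the conceptus block their IVD adjusted p were 0.131, 0.119, 0.14 and 0.0992, while the average changes of all 4 stayed past the threshold (adjusted p 0.0283, 0.0386, 0.0416 and 0.0382). With library totals alone the IVD calls of EIF3I, EIF3K and the helicase EIF4A2 ended. No library decided the average calls of these 4 subunits.

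The other 3 eIF3 genes that rose were core subunits. EIF3E, a PCI-domain subunit, had 312, 445 and 519.5 CPM in IVP co-culture against 231, 249.9, 323, 363 and 406 CPM in IVP mono-culture, and 312, 386 and 738 CPM in IVD co-culture against 257, 295 and 353 CPM in IVD mono-culture. EIF3M, also a PCI-domain subunit, had 117, 158 and 203 CPM in IVP co-culture against 109.6, 118, 122, 127 and 136 CPM in IVP mono-culture, and 116, 129.9 and 252 CPM in IVD co-culture against 93.4, 114 and 136 CPM in IVD mono-culture. EIF3CL, which carries the name of the scaffold subunit EIF3C, had 256, 397 and 567 CPM in IVP co-culture against 231, 259, 266, 288 and 315 CPM in IVP mono-culture, and 259, 298 and 378 CPM in IVD co-culture against 247, 279 and 321 CPM in IVD mono-culture. In all 3 genes the co-culture ranges extended further up: 4 of 7 IVP and 6 of 9 IVD co-culture libraries lay above the highest mono-culture library of their type for EIF3E, 4 of 7 IVP and 3 of 9 IVD for EIF3M and 5 of 7 IVP and 4 of 9 IVD for EIF3CL. EIF3E changed by 0.42 (SE 0.19) in IVP tissue, 0.44 (SE 0.16) in IVD tissue and 0.43 (SE 0.12) on average (edgeR adjusted p = 0.0156). For EIF3M the change was 0.37 (SE 0.18) in IVP tissue, 0.39 (SE 0.15) in IVD tissue and 0.38 (SE 0.11) on average (edgeR adjusted p = 0.0228). The change of EIF3CL was 0.47 (SE 0.16) in IVP tissue, 0.17 (SE 0.13) in IVD tissue and 0.32 (SE 0.10) on average (edgeR adjusted p = 0.028). No gene of these 3 passed under the conceptus block (adjusted p 0.0616, 0.0865 and 0.0649), although all 3 passed an exact sign-flip permutation test, which turns the sign of the paired change of each of 11 conceptuses (adjusted p over all genes 0.0217, 0.0254 and 0.0217), and the EIF3CL call ended without either of IVP mono-culture replicates 1 and 2 (adjusted p up to 0.062).

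The remaining 6 eIF3 genes did not pass on average. EIF3G, an RNA-binding subunit of the same module as EIF3I, came closest at 0.32 (SE 0.12) (edgeR adjusted p = 0.0509) and passed the exact sign-flip permutation test within conceptuses (adjusted p over all genes 0.0284), followed by the MPN-domain subunit EIF3F at 0.34 (SE 0.13) (adjusted p = 0.0756). The largest scaffold EIF3A had an average change of 0.23 (SE 0.10), the scaffold EIF3B 0.20 (SE 0.12) and the PCI-domain subunit EIF3L 0.12 (SE 0.09) (edgeR adjusted p 0.0946 to 0.373, with EIF3J). EIF3J, a loosely held subunit near the messenger entry channel, had 46.5, 70.98 and 138 CPM in IVP co-culture against 37.3, 50.01, 54.96, 60.0001 and 78.6 CPM in IVP mono-culture, and 29.3, 53.4 and 90.4 CPM in IVD co-culture against 38.3, 49.3 and 76.1 CPM in IVD mono-culture. Its average change was 0.33 (SE 0.18). EIF3L had 145, 219 and 284 CPM in IVP co-culture against 186, 187, 188, 193 and 193 CPM in IVP mono-culture, and 162, 184 and 234 CPM in IVD co-culture against 161, 184 and 214 CPM in IVD mono-culture. The groups of EIF3J overlapped in both types, as did those of EIF3L in IVD tissue. In IVP tissue 5 of 7 EIF3L co-culture libraries lay above the highest mono-culture library and 2 below the lowest. Group medians (IVP on endometrium, IVP alone, IVD on endometrium, IVD alone) were 579.9, 449, 532 and 464 CPM for EIF3A, 232, 217, 236 and 197 CPM for EIF3B, 367, 264, 277 and 201 CPM for EIF3F and 236, 178, 219 and 167 CPM for EIF3G, so the co-culture median was the higher in each type for all 4.

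Both helicase genes of eIF4F rose. EIF4A2, one of a pair of near-identical helicases of the complex, had 286, 540.5 and 1053 CPM in IVP co-culture against 186, 199, 263, 276 and 479 CPM in IVP mono-culture. In IVD tissue EIF4A2 had 292, 473 and 808 CPM in IVD co-culture against 199, 274 and 366 CPM in IVD mono-culture. The co-culture medians were above the mono-culture medians in both types, the ranges overlapped, and 4 of 7 IVP and 7 of 9 IVD co-culture libraries lay above the highest mono-culture library of their type. EIF4A2 changed by 1.07 (SE 0.31) in IVP tissue, 0.90 (SE 0.25) in IVD tissue and 0.98 (SE 0.20) on average (edgeR adjusted p = 0.00245), the widest average change of the 44. It also rose in IVD tissue alone (edgeR adjusted p = 0.0348), but did not pass without any 1 of IVD co-culture replicates 6, 7 and 8 and IVD mono-culture replicates 1, 2, 4, 5 and 8 (adjusted p up to 0.068) and with the conceptus as a block (0.081), whereas the average passed in each of these fits (block adjusted p = 0.0229). EIF4A1, the other helicase of the pair, had 988, 1495 and 1634 CPM in IVP co-culture against 907, 954, 968, 1076 and 1218 CPM in IVP mono-culture, and 939, 1207 and 1893 CPM in IVD co-culture against 896, 947 and 1168 CPM in IVD mono-culture. Here 5 of 7 IVP and 6 of 9 IVD co-culture libraries lay above the highest mono-culture library of their type, and the change was 0.42 (SE 0.16) in IVP tissue, 0.32 (SE 0.13) in IVD tissue and 0.37 (SE 0.10) on average (edgeR adjusted p = 0.0157). EIF4A3, a helicase of the exon junction complex that marks spliced messengers, had 58.4, 75.9 and 93.7 CPM in IVP co-culture against 56.9, 67.4, 74.2, 78.2 and 79.7 CPM in IVP mono-culture, and 57.7, 64.2 and 86.6 CPM in IVD co-culture against 55.999, 70.7 and 93.03 CPM in IVD mono-culture. Its average change was 0.02 (SE 0.09) (edgeR adjusted p = 0.881), with a negative sign under library totals alone, and 4 of 7 IVP and 4 of 9 IVD co-culture libraries lay above the mono-culture median of their type. How reads that align to both EIF4A1 and EIF4A2 were counted is not given in the sources used here, so their separate levels are uncertain, as are those of EIF1 and EIF1B, of EIF5A and EIF5A2 and of EIF3CL.

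The RNA-binding cofactors that stimulate the helicase rose as well. EIF4B had 956, 1219 and 1513 CPM in IVP co-culture against 639, 646, 866, 1078 and 1224 CPM in IVP mono-culture, and 846, 1259 and 1403 CPM in IVD co-culture against 636, 869 and 1086 CPM in IVD mono-culture. EIF4H, which resembles part of EIF4B, had 806, 1277 and 1424 CPM in IVP co-culture against 659, 727, 768, 781 and 1102 CPM in IVP mono-culture, and 606, 1074 and 1740.1 CPM in IVD co-culture against 682, 755 and 957 CPM in IVD mono-culture. For EIF4B 3 of 7 IVP and 5 of 9 IVD co-culture libraries lay above the highest mono-culture library of their type, and for EIF4H the numbers were 4 and 7. EIF4B changed by 0.43 (SE 0.19) in IVP tissue, 0.42 (SE 0.15) in IVD tissue and 0.42 (SE 0.12) on average (edgeR adjusted p = 0.0157) and EIF4H by 0.54 (SE 0.20) in IVP tissue, 0.49 (SE 0.16) in IVD tissue and 0.51 (SE 0.13) on average (edgeR adjusted p = 0.00729). Both average changes passed under the conceptus block (adjusted p 0.0436 and 0.0442), while in the exact sign-flip permutation test within conceptuses EIF4B passed and EIF4H did not (adjusted p over all genes 0.0379 and 0.069).

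**Figure D2:**
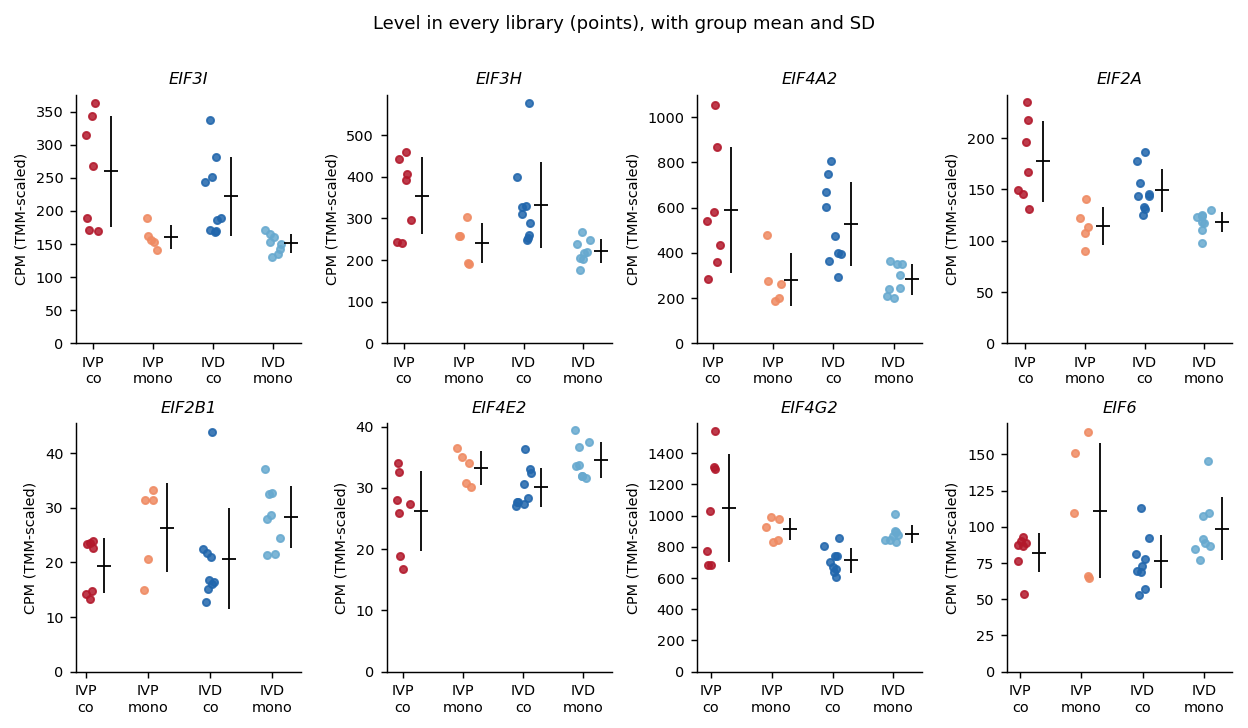
CPM in each library (points) with the mean and SD of each group for EIF3I, EIF3H, EIF4A2, EIF2A, EIF2B1, EIF4E2, EIF4G2 and EIF6, with the co- and mono-culture groups of IVP tissue at the left and of IVD tissue at the right. The co-culture groups of EIF3I, EIF3H and EIF4A2 reach above their mono-culture groups but overlap them, and the EIF4G2 groups of IVP and IVD co-culture overlap around a higher IVP mean.

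Among the cap-binding genes EIF4E2 fell. EIF4E, the cap-binding subunit of eIF4F, had 79.6, 103.2 and 151 CPM in IVP co-culture against 83.1, 85.3, 86.4, 107 and 123 CPM in IVP mono-culture, and 80.5, 97.96 and 118 CPM in IVD co-culture against 78.5, 89.9 and 106 CPM in IVD mono-culture. EIF4E2, a paralog that binds caps without the EIF4G scaffold and is known for repression in mammals, had 16.8, 27.3 and 34.1 CPM in IVP co-culture against 30.1, 30.7, 34.1, 35.03 and 36.6 CPM in IVP mono-culture, and 27.1, 28.4 and 36.3 CPM in IVD co-culture against 31.7, 33.6 and 39.4 CPM in IVD mono-culture. EIF4E2 was lower in most co-culture libraries, and 5 of 7 IVP and 6 of 9 IVD co-culture libraries lay below the lowest mono-culture library of their type. EIF4E2 changed by -0.34 (SE 0.14) in IVP tissue, -0.20 (SE 0.11) in IVD tissue and -0.27 (SE 0.09) on average (edgeR adjusted p = 0.0337), and its call ended under the conceptus block (adjusted p = 0.0758) and without any 1 of IVP co-culture replicates 1, 4 and 6 and IVP mono-culture replicates 1, 2 and 4 (up to 0.0655). EIF4E3, an atypical paralog, had 4.61, 6.51 and 11.3 CPM in IVP co-culture against 4.34, 5.16, 8.20, 8.51 and 11.5 CPM in IVP mono-culture, and 2.53, 7.05 and 14.3 CPM in IVD co-culture against 2.77, 7.87 and 17.8 CPM in IVD mono-culture. This gene spread widely within every group. The average changes of EIF4E and EIF4E3 were 0.15 (SE 0.09) and -0.14 (SE 0.26) (edgeR adjusted p = 0.286 and 0.756). With library totals alone EIF4E turned negative. EIF4ENIF1, which carries EIF4E into the nucleus and to sites of repressed messengers, had 13.6, 23.5 and 29.6 CPM in IVP co-culture against 24.6, 26.2, 26.3, 28.1 and 28.97 CPM in IVP mono-culture, and 20.8, 25.9 and 39.6 CPM in IVD co-culture against 25.7, 28.2 and 33.8 CPM in IVD mono-culture. Its average change was -0.19 (SE 0.10) (edgeR adjusted p = 0.175).

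None of the 3 scaffold genes passed on average. EIF4G1, the main scaffold, had 267, 434 and 580.3 CPM in IVP co-culture against 318, 396, 399, 620.2 and 653 CPM in IVP mono-culture, and 139, 368 and 601 CPM in IVD co-culture against 420.3, 549 and 809.8 CPM in IVD mono-culture. IVD mono-culture replicate 1 was the highest EIF4G1 library of its group, and 1 of 7 IVP and 8 of 9 IVD co-culture libraries lay below the lowest mono-culture library of their type. EIF4G3, its paralog, had 30.7, 58.5 and 76.9 CPM in IVP co-culture against 39.2, 39.3, 44.7, 70.8 and 72.8 CPM in IVP mono-culture, and 30.03, 49.7 and 89.1 CPM in IVD co-culture against 30.6, 55.1 and 78.9 CPM in IVD mono-culture. EIF4G2, which lacks the part that binds EIF4E and serves cap-independent initiation, had 685, 1031 and 1544 CPM in IVP co-culture against 832, 847, 925, 976 and 989 CPM in IVP mono-culture. The IVD libraries of EIF4G2 held 607, 699.7 and 858 CPM in IVD co-culture against 829.6, 874 and 1011 CPM in IVD mono-culture. In IVD tissue 9 of 9 co-culture libraries lay below the mono-culture median, and in IVP tissue 4 of 7 lay above it. The average changes were -0.41 (SE 0.16) for EIF4G1, -0.06 (SE 0.11) for EIF4G2 and -0.02 (SE 0.16) for EIF4G3 (edgeR adjusted p = 0.0735, 0.751 and 0.946), and with library totals alone EIF4G1 and EIF4G2 passed as lower.

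Ratios between paralogs within a library do not depend on the scaling of libraries. They are ratios of counts, not of molecules, since transcript lengths were not used. The 11 ratios were compared in 4 comparisons each by exact two-sided permutation of the libraries, with p adjusted over the 44 tests. Of these 44, 1 passed: there were 0.274, 0.312 and 0.354 EIF4E2 reads per EIF4E read in IVD co-culture against 0.347, 0.366 and 0.407 in IVD mono-culture. The log2 ratio averaged -1.69 ± 0.134 in IVD co-culture and -1.41 ± 0.0925 in IVD mono-culture (SD, n = 9 and 8), a difference of -0.27 (exact permutation p = 0.000247, adjusted p = 0.0109), and it passed without any 1 library (adjusted p 0.00684 to 0.0308) and on means per conceptus (0.0137). In IVP tissue the log2 ratio averaged -2.11 ± 0.676 in co-culture and -1.53 ± 0.274 in mono-culture (SD, n = 7 and 5), with a wide spread in co-culture (exact permutation p = 0.111, adjusted p = 0.376).

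Paired within the 11 conceptuses, 4 of the 11 ratios passed an exact sign-flip permutation test adjusted over the 11. Ratios within EIF4A, within EIF4E and within EIF4G are not independent tests, since each follows from the others of its set. The EIF4A ratios that passed are therefore not separate results. Within 10 of 11 conceptuses EIF4E2 over EIF4E was lower on endometrium, by 0.38 on the log2 scale in the mean (SD 0.31, adjusted p = 0.0215, and 0.0143 to 0.0430 without any 1 conceptus). EIF4A2 over EIF4A1 was higher within 10 of 11 (mean 0.51, SD 0.52, adjusted p = 0.0349), but did not pass without any 1 of conceptuses 8, 23, 24, 26, 47, 50 and 66 (adjusted p up to 0.0698). EIF4A3 over EIF4A1 was lower within 9 of 11 (mean -0.33, SD 0.28, adjusted p = 0.0251) and EIF4A3 over EIF4A2 within 10 of 11 (mean -0.85, SD 0.69, adjusted p = 0.0251), and both ended without any 1 of conceptuses 8, 24, 26, 47 and 66 (up to 0.0501). Between groups, EIF4A2 over EIF4A1 averaged -1.32 ± 0.556 in IVP co-culture, -1.95 ± 0.469 in IVP mono-culture, -1.28 ± 0.515 in IVD co-culture and -1.84 ± 0.382 in IVD mono-culture (log2, SD, n = 7, 5, 9 and 8), and neither type passed (exact permutation adjusted p = 0.296 and 0.204). Leaving out 1 library or conceptus added calls for 3 other tests: EIF4A3 over EIF4A2 in IVD tissue without IVD co-culture replicate 4 (adjusted p = 0.0410) and EIF4G2 over EIF4G1 in IVD tissue without IVD co-culture replicate 5 (0.0479), and within conceptus EIF4E3 over EIF4E without conceptus 23 (0.0322). The ratios EIF1B over EIF1, EIF4E3 over EIF4E2, EIF4G3 over EIF4G1, EIF4G3 over EIF4G2 and EIF5A2 over EIF5A passed in neither test.

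**Figure D3:**
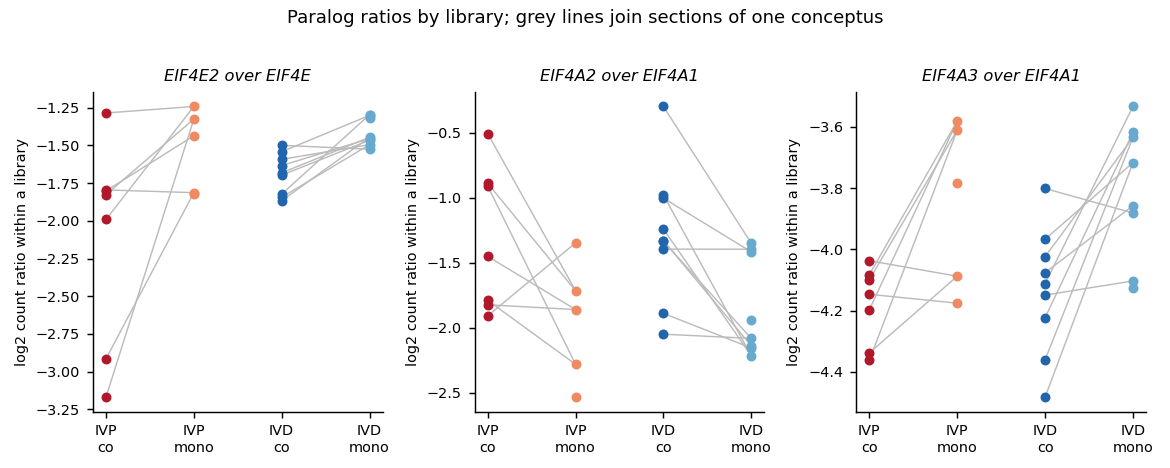
Log2 ratio of counts in each library for EIF4E2 over EIF4E, EIF4A2 over EIF4A1 and EIF4A3 over EIF4A1, by group from IVP co-culture at the left to IVD mono-culture at the right, with grey lines between sections of 1 conceptus. For EIF4E2 over EIF4E the mean of the co-culture sections lies below mono-culture in 10 of 11 conceptuses, with single lines also rising toward co-culture in conceptuses 23 and 71, and the IVP co-culture points spread more than the IVD co-culture points.

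Of the genes around initiator tRNA delivery, EIF2A rose. EIF2A encodes a protein separate from the eIF2 heterotrimer that can itself deliver initiator tRNA, and it had 131, 167 and 235 CPM in IVP co-culture against 90.3, 107, 113, 122 and 140.4 CPM in IVP mono-culture. In IVD tissue EIF2A had 125, 144 and 187 CPM in IVD co-culture against 97.9, 121 and 130.1 CPM in IVD mono-culture. The groups overlapped at their edges, and 6 of 7 IVP and 8 of 9 IVD co-culture libraries lay above the highest mono-culture library of their type. EIF2A changed by 0.63 (SE 0.14) in IVP tissue, 0.33 (SE 0.12) in IVD tissue and 0.48 (SE 0.09) on average (edgeR adjusted p = 0.00186), the smallest adjusted p of the 44, and it passed with the conceptus as a block (0.0254) and without any 1 library. EIF2D, which can also deliver tRNA and acts in ribosome recycling, had 14.4, 20.1 and 42.1 CPM in IVP co-culture against 11.1, 13.7, 18.9, 19.6 and 23.9 CPM in IVP mono-culture, and 14.5, 19.01 and 24.1 CPM in IVD co-culture against 13.6, 16.9 and 22.7 CPM in IVD mono-culture. EIF2D changed by 0.52 (SE 0.23) in IVP tissue, 0.13 (SE 0.19) in IVD tissue and 0.32 (SE 0.15) on average (edgeR adjusted p = 0.119). Within conceptuses EIF2D was higher in 10 of 11 and passed the exact sign-flip permutation test (adjusted p over all genes 0.0254).

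The subunits of eIF2 itself did not pass. EIF2S1, the alpha subunit that stress kinases phosphorylate, had 73.9, 88.7 and 114 CPM in IVP co-culture against 62.2, 81.04, 82.9, 98.8 and 99.6 CPM in IVP mono-culture, and 66.7, 81.8 and 125 CPM in IVD co-culture against 68.7, 75.7 and 91.8 CPM in IVD mono-culture. EIF2S2, the beta subunit, had 255, 288 and 422 CPM in IVP co-culture against 245, 259, 261, 262 and 365 CPM in IVP mono-culture, and 199, 261 and 369 CPM in IVD co-culture against 216, 270.0 and 386 CPM in IVD mono-culture. EIF2S3, the gamma subunit that binds GTP and tRNA, had 326, 441 and 531 CPM in IVP co-culture against 322, 327, 385, 410.2 and 456 CPM in IVP mono-culture, and 356, 459 and 739 CPM in IVD co-culture against 238, 357 and 553 CPM in IVD mono-culture. The ranges of the co- and mono-culture groups lay over each other, and 4 of 7 IVP and 7 of 9 IVD co-culture libraries lay above the mono-culture median of their type for EIF2S1. Average changes were 0.16 (SE 0.10) for EIF2S1, 0.11 (SE 0.11) for EIF2S2 and 0.28 (SE 0.13) for EIF2S3 (edgeR adjusted p = 0.265, 0.541 and 0.123), and with library totals alone EIF2S1 and EIF2S2 turned negative.

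None of the 4 genes with an EIF1 symbol passed on average, and 3 of their averages were positive (2 with library totals alone, where EIF1B turned negative). EIF1 had 496, 848 and 1037 CPM in IVP co-culture against 436, 566, 596, 680.0 and 749.6 CPM in IVP mono-culture, and 491, 626 and 1207 CPM in IVD co-culture against 342, 488 and 834 CPM in IVD mono-culture. Its near-identical paralog EIF1B had 37.6, 55.02 and 61.98 CPM in IVP co-culture against 42.8, 45.3, 49.7, 54.2 and 60.9 CPM in IVP mono-culture, and 41.5, 49.5 and 98.3 CPM in IVD co-culture against 33.1, 42.9 and 58.3 CPM in IVD mono-culture. EIF1AX, the X-linked gene of EIF1A, had 124, 221 and 279 CPM in IVP co-culture against 130.2, 147, 154, 190.0 and 207 CPM in IVP mono-culture, and 137, 221 and 554 CPM in IVD co-culture against 99.5, 163 and 235 CPM in IVD mono-culture. For EIF1AX 5 of 7 IVP and 7 of 9 IVD co-culture libraries lay above the mono-culture median of their type. EIF1AD, a protein with an EIF1A-like domain that human cells use in small subunit maturation, had 8.98, 10.5 and 16.6 CPM in IVP co-culture against 8.21, 9.47, 12.6, 15.01 and 16.8 CPM in IVP mono-culture, and 8.16, 11.2 and 15.9 CPM in IVD co-culture against 8.35, 11.3 and 15.9 CPM in IVD mono-culture. The average changes were 0.41 (SE 0.16) for EIF1, 0.45 (SE 0.18) for EIF1AX, 0.17 (SE 0.12) for EIF1B and -0.06 (SE 0.13) for EIF1AD (edgeR adjusted p = 0.0652, 0.0766, 0.325 and 0.801), so the sign of EIF1AD differed from the other 3. Within conceptuses EIF1AX was higher in 10 of 11 and passed the exact sign-flip permutation test (adjusted p over all genes 0.0284).

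Under TMM scaling eIF2B genes showed no common direction, with a median average change of -0.04 and 2 of 5 positive. With library totals alone 0 of 5 were positive, where the median of all genes was -0.27. EIF2B5, the subunit with the exchange activity, had 86.2, 106 and 136 CPM in IVP co-culture against 89.7, 90.1, 91.9, 92.4 and 92.996 CPM in IVP mono-culture, and 73.6, 102 and 106 CPM in IVD co-culture against 77.9, 89.3 and 114 CPM in IVD mono-culture. EIF2B3, its partner in the catalytic subcomplex, had 18.01, 19.6 and 24.1 CPM in IVP co-culture against 16.8, 18.9, 19.9, 20.2 and 25.98 CPM in IVP mono-culture, and 15.99, 17.3 and 33.7 CPM in IVD co-culture against 17.4, 19.6 and 26.7 CPM in IVD mono-culture. For EIF2B5 5 of 7 IVP co-culture libraries lay above the highest mono-culture library and 2 below the lowest, and in IVD tissue 0 of 9 and 1 of 9 did. For EIF2B3 0 of 7 IVP co-culture libraries lay outside the mono-culture range, and in IVD tissue 1 of 9 lay above it and 5 of 9 below. Among the regulatory subunits, which sense phosphorylated eIF2, EIF2B1 had 13.3, 22.7 and 23.98 CPM in IVP co-culture against 14.9, 20.6, 31.3, 31.4 and 33.3 CPM in IVP mono-culture, and 12.8, 16.8 and 43.8 CPM in IVD co-culture against 21.4, 28.4 and 37.2 CPM in IVD mono-culture. EIF2B1 was lower in most co-culture libraries, and 3 of 7 IVP and 6 of 9 IVD co-culture libraries lay below the lowest mono-culture library of their type, while IVD co-culture replicate 5 was the highest of all. EIF2B2 had 21.9, 31.8 and 43.4 CPM in IVP co-culture against 25.7, 31.4, 44.9, 46.5 and 51.2 CPM in IVP mono-culture, and 28.5, 36.04 and 55.5 CPM in IVD co-culture against 32.7, 38.8 and 62.2 CPM in IVD mono-culture. EIF2B4 had 19.5, 24.8 and 39.97 CPM in IVP co-culture against 18.7, 20.01, 25.9, 27.3 and 29.7 CPM in IVP mono-culture, and 17.9, 24.7 and 34.1 CPM in IVD co-culture against 21.1, 23.6 and 31.2 CPM in IVD mono-culture. Co- and mono-culture libraries of these last 2 genes overlapped over most of their ranges. The summed level of the 5 genes had medians of 198 CPM in IVP co-culture, 213 CPM in IVP mono-culture, 196 CPM in IVD co-culture and 199.6 CPM in IVD mono-culture. Average changes were -0.45 (SE 0.16) for EIF2B1 (edgeR adjusted p = 0.0563), -0.20 (SE 0.12) for EIF2B2, -0.04 (SE 0.11) for EIF2B3, 0.12 (SE 0.11) for EIF2B4 and 0.14 (SE 0.08) for EIF2B5, the last 4 with adjusted p of 0.254 or more.

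In the late steps EIF6 fell. EIF6, which keeps the large ribosomal subunit from joining too early, had 53.6, 87.2 and 92.7 CPM in IVP co-culture against 64.6, 65.8, 109, 151 and 166 CPM in IVP mono-culture. The IVD libraries of EIF6 gave 53.2, 73.3 and 113 CPM in IVD co-culture against 77.1, 90.01 and 145 CPM in IVD mono-culture. IVP co-culture replicate 7 was the lowest of its group, and 1 of 7 IVP and 5 of 9 IVD co-culture libraries lay below the lowest mono-culture library of their type. EIF6 changed by -0.44 (SE 0.22) in IVP tissue, -0.37 (SE 0.18) in IVD tissue and -0.40 (SE 0.14) on average (edgeR adjusted p = 0.0439), a call that ended under the conceptus block (adjusted p = 0.138) and without any 1 of IVP co-culture replicates 1, 4, 5, 6 and 7, IVP mono-culture replicates 1, 2 and 5, IVD co-culture replicates 1, 3, 4, 7, 8 and 9 and IVD mono-culture replicates 1, 3 and 4 (up to 0.131). The call also ended with RLE factors (the scaling of DESeq2), with upper-quartile scaling and with counts summed per conceptus. Within conceptuses EIF6 was higher in co-culture in 4 of 11. EIF5, the GTPase activator of eIF2, had 319.9, 451 and 624 CPM in IVP co-culture against 335, 364, 465, 573 and 764 CPM in IVP mono-culture, and 200.5, 403 and 598 CPM in IVD co-culture against 372, 502 and 718 CPM in IVD mono-culture. EIF5B, the GTPase of subunit joining, had 71.1, 113 and 153 CPM in IVP co-culture against 84.99, 86.7, 87.4, 93.7 and 104 CPM in IVP mono-culture, and 62.8, 83.3 and 109.7 CPM in IVD co-culture against 66.3, 85.6 and 109 CPM in IVD mono-culture. The groups of EIF5 overlapped in both types, as did those of EIF5B in IVD tissue. In IVP tissue 5 of 7 EIF5B co-culture libraries lay above the highest mono-culture library and 2 below the lowest.

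EIF5A, a hypusine-bearing factor now known mainly for elongation, had 432, 632 and 1024 CPM in IVP co-culture against 508, 538, 584, 599 and 614 CPM in IVP mono-culture, and 391, 483 and 671 CPM in IVD co-culture against 466.4, 524 and 692 CPM in IVD mono-culture. Its paralog EIF5A2 had 2.40, 4.02 and 7.31 CPM in IVP co-culture against 2.41, 2.72, 4.98, 5.47 and 5.93 CPM in IVP mono-culture, and 3.25, 6.01 and 7.23 CPM in IVD co-culture against 2.44, 4.98 and 5.95 CPM in IVD mono-culture. EIF5A had its highest group median in IVP co-culture and its lowest in IVD co-culture. The average changes were -0.25 (SE 0.16) for EIF5, 0.08 (SE 0.12) for EIF5A, 0.17 (SE 0.18) for EIF5A2 and 0.13 (SE 0.10) for EIF5B (edgeR adjusted p = 0.296, 0.667, 0.522 and 0.409), and the last 3 turned negative with library totals alone.

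Against IVD sections, IVP sections on endometrium had 0 factors past the threshold in edgeR, where 0.0251% of all genes passed (0.0188% higher and 0.00627% lower), and 5 of 44 (11.4%) at an unadjusted p under 0.05 against 13.6% of all genes. DESeq2 called 1 factor, among 152 of all genes, and limma voom 0 factors and 2 of all genes. The median difference was 0.13 with 33 positive, against -0.06 over all genes with 44.1% positive. With library totals alone 20 of 44 were positive, and the median was -0.02 against -0.19 over all genes. The 5 were EIF4G2 at 0.55 (SE 0.14) (edgeR adjusted p = 0.145), EIF5A at 0.49 (SE 0.16) (0.212), EIF3J at 0.59 (SE 0.24) (0.292), EIF5B at 0.35 (SE 0.14) (0.281) and EIF2A at 0.25 (SE 0.12) (0.363). All 13 eIF3 genes were positive, with a median of 0.21 and none past the threshold, while EIF3D, EIF3E, EIF3H and EIF3M turned negative with library totals alone. The next members by p in their factor groups were EIF2D at 0.38 (SE 0.19), EIF3CL at 0.26 (SE 0.13), EIF3L at 0.22 (SE 0.12), EIF2B5 at 0.20 (SE 0.11), EIF4ENIF1 at -0.23 (SE 0.13) and EIF4E at 0.22 (SE 0.12), all with edgeR adjusted p of 0.377 or more. Only 4 conceptuses stand behind the 7 IVP co-culture libraries, and the type of conceptus cannot be separated from the conceptus in a blocked fit, so these p-values count sections as animals.

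In mono-culture, IVP and IVD sections differed in 0 factors in edgeR, DESeq2 or limma voom (0% of all genes in edgeR), and 0 of 44 had an unadjusted p under 0.05 against 2.08% of all genes. The median difference was 0.02 with 26 positive, against -0.02 over all genes with 46.1% positive, and the differences ran from -0.25 to 0.25. With library totals alone 24 were positive, and the median was 0.01 against -0.03 over all genes. The difference between the IVP and the IVD co-culture change passed for 0 factors in the same 3 tools (0% of all genes in edgeR), with 1 at an unadjusted p under 0.05 against 1.76% of all genes. That factor was EIF4G2, at 0.51 (SE 0.22) (p = 0.0261, edgeR adjusted p = 1). Its change was 0.20 (SE 0.17) in IVP and -0.31 (SE 0.14) in IVD tissue.

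Paired within the 11 conceptuses that were in both cultures, 19 factors were higher in co-culture within at least 9 conceptuses and 4 were lower, where 16.2% and 19.6% of all genes were. With library totals alone the 19 became 11, and the share of all genes under that scaling was not counted. Within at least 10 conceptuses 12 factors were higher and 0 lower (8.2% and 9.43% of all genes). EIF2A, EIF3K and EIF4A1 were higher within all 11 and 0 factors lower (2.25% and 3.05% of all genes), with mean log2 changes of 0.39 (SD 0.27), 0.47 (SD 0.23) and 0.35 (SD 0.18). The 4 that were lower within 9 were EIF2B1 (mean -0.37, SD 0.48), EIF4E2 (mean -0.25, SD 0.26), EIF4ENIF1 (mean -0.16, SD 0.27) and EIF4G1 (mean -0.34, SD 0.50). In the exact sign-flip permutation test, 14 factors passed after adjustment over all genes, where 21.7% of all genes did. They were EIF1AX, EIF2A, EIF2D, EIF3CL, EIF3D, EIF3E, EIF3G, EIF3H, EIF3I, EIF3K, EIF3M, EIF4A1, EIF4A2 and EIF4B, all higher in co-culture, so EIF1AX, EIF2D and EIF3G passed here and not in the average change, and EIF4E2, EIF4H and EIF6 the other way round (sign-flip adjusted p 0.0519, 0.069 and 0.18). The smallest p that 11 conceptuses allow is 0.000977. EIF4A2 had the widest mean change, 0.86 (SD 0.58), running from -0.42 to 1.45 over the conceptuses. Under TMM scaling EIF4G2 was higher in co-culture within 4 of 4 IVP and 0 of 7 IVD conceptuses. With library totals alone its change turned negative in most IVP conceptuses, so this split depends on the scaling. How many of all genes split this way was not counted.

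**Figure D4:**
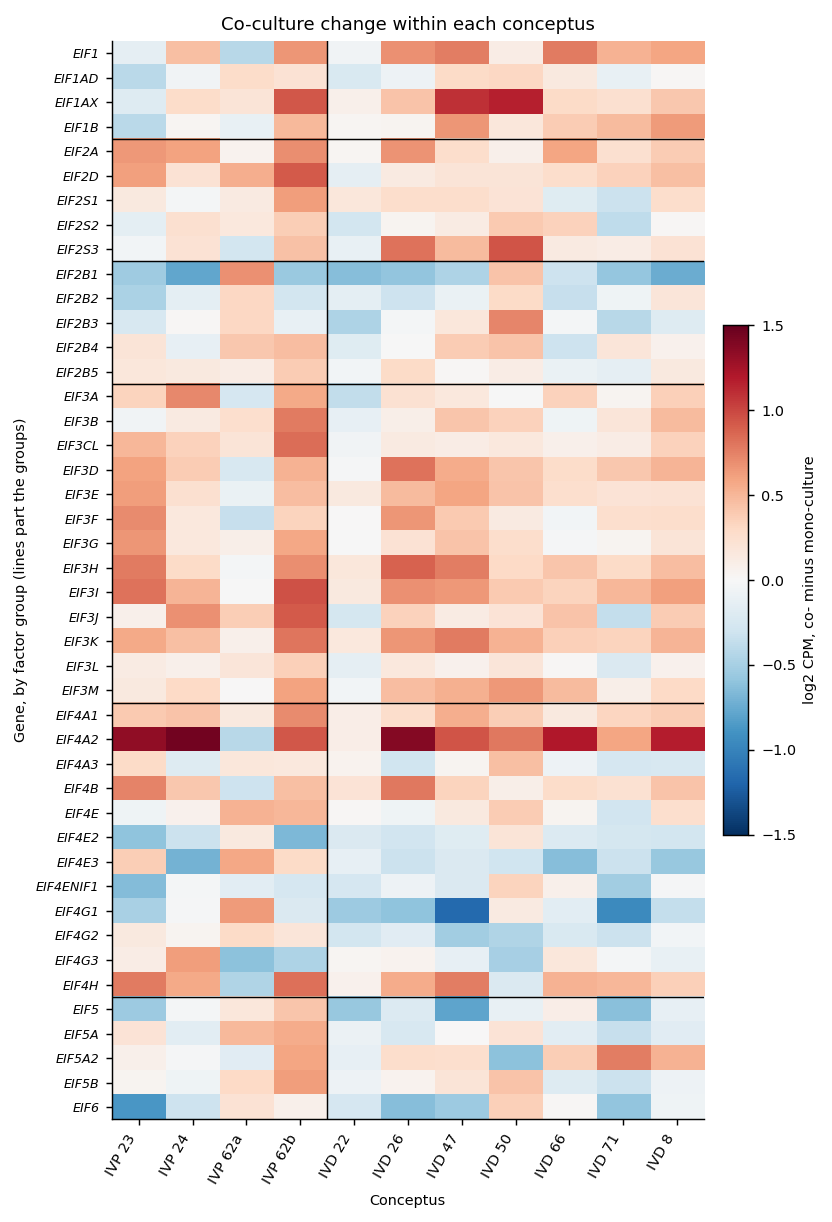
Log2 change of each factor (rows, by factor group) in co- against mono-culture within each of the 11 conceptuses (columns, the 4 IVP first), with red for higher and blue for lower in co-culture. The EIF3 rows are mostly red across the columns, and the EIF4G2 row is red in all 4 IVP columns and blue in all 7 IVD columns. These colours are for TMM scaling, on which the sign of EIF4G2 in most IVP columns depends. The share of all genes with such a split was not counted.

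How libraries were scaled set the direction of many factors. With library totals alone, a scaling added after the data were examined, the median of all genes moved to -0.27 on average (-0.34 in IVP and -0.19 in IVD tissue), the median of the factors to -0.10, and the number of positive factors to 19 of 44. The calls became 7 higher and 8 lower (3.41% and 21.4% of all genes, 24.9% together), of which 9 were among the 14 calls under TMM. EIF2A, EIF3D, EIF3H, EIF3I, EIF3K, EIF4A2 and EIF4H passed as higher under both scalings, with average changes of 0.24, 0.22, 0.31, 0.36, 0.30, 0.74 and 0.26 by totals, and EIF4E2 (-0.49) and EIF6 (-0.67) as lower. EIF3CL, EIF3E, EIF3M, EIF4A1 and EIF4B kept a positive sign but did not pass. EIF2B1, EIF2B2, EIF4ENIF1, EIF4G1, EIF4G2 and EIF5 passed as lower with library totals alone and under TMM did not. RLE factors, DESeq2's scaling, turned only EIF4G3 among the 44 average changes.

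**Figure D5:**
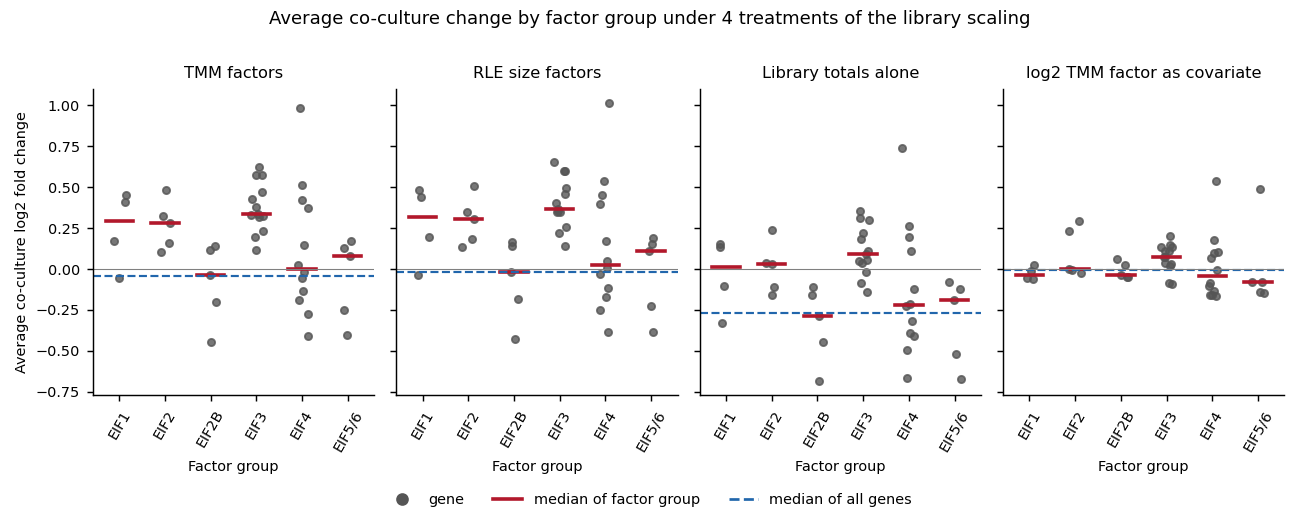
Average co-culture log2 change of the factors (points, by factor group) under TMM, RLE factors, library totals alone and TMM plus a TMM covariate, with the median of each factor group in red and the median of all genes as a dashed blue line. Under library totals alone the EIF3 points stay above the median of all genes, which itself moves to -0.27, and under the covariate the group medians lie near 0.

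Other translation genes were read from lists beside the factors, against 9.16% of all genes higher and 9.69% lower in the average change. Of 11 elongation genes (7 elongation factors, the tRNA synthetase scaffold EEF1E1, the EEF2 kinase EEF2K and the hypusination enzymes DHPS and DOHH) 6 rose and 0 fell, with a median of 0.35, and with library totals alone 4 were higher and DOHH lower. The 6 were EEF1A1, EEF1B2, EEF1D, EEF1G, EEF2 and DHPS. EEF2, the translocase, changed by 0.59 (SE 0.12, edgeR adjusted p = 0.00287), with medians of 6726 CPM in IVP co-culture, 4381 CPM in IVP mono-culture, 5648 CPM in IVD co-culture and 4125 CPM in IVD mono-culture. The subunits EEF1D, EEF1G and EEF1B2 of the exchange complex for EEF1A changed by 0.76 (SE 0.16, edgeR adjusted p = 0.0034), 0.64 (SE 0.14, edgeR adjusted p = 0.00391) and 0.61 (SE 0.16, edgeR adjusted p = 0.0094). Of 9 genes that set eIF2 phosphorylation 1 rose and 3 fell, with a median of -0.14. PPP1R15A, the stress-induced phosphatase subunit that acts on eIF2, rose by 1.27 (SE 0.37, edgeR adjusted p = 0.0171), with medians of 129 CPM in IVP co-culture, 75.5 CPM in IVP mono-culture, 82.6 CPM in IVD co-culture and 38.8 CPM in IVD mono-culture. Its constitutive counterpart PPP1R15B changed by -0.95 (SE 0.21, edgeR adjusted p = 0.00431), the kinase activator GCN1 by -0.53 (SE 0.11, edgeR adjusted p = 0.00316) and the heme-regulated kinase EIF2AK1 by -0.38 (SE 0.12, edgeR adjusted p = 0.034). Under the conceptus block EEF1B2, EEF1A1 and EIF2AK1 did not pass (0.0544, 0.0947 and 0.0572 as edgeR adjusted p).

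Of 19 genes that control cap binding 5 rose and 3 fell, with a median of 0.02 (2 higher and 6 lower with library totals alone). MKNK1, a kinase of EIF4E, changed by -0.74 (SE 0.10, edgeR adjusted p = 0.000397), with medians of 16.1 CPM in IVP co-culture, 29.5 CPM in IVP mono-culture, 16.6 CPM in IVD co-culture and 28.7 CPM in IVD mono-culture. The repressors PAIP2, of poly(A)-binding protein, and EIF4EBP1, of EIF4E, rose by 0.64 (SE 0.13, edgeR adjusted p = 0.00245) and 0.49 (SE 0.12, edgeR adjusted p = 0.00663), and the poly(A)-binding protein PABPC4 rose by 0.77 (SE 0.19, edgeR adjusted p = 0.00792). RHEB and RPS6KB2 were the other 2 that rose, and LARP1 and RPTOR the other 2 that fell. Of 6 termination and recycling genes 0 passed in edgeR, with 1 at an unadjusted p under 0.05 (ABCE1, -0.23 (SE 0.11, edgeR adjusted p = 0.15)) and a median of 0.02, and with library totals alone ABCE1 was lower past the threshold. MCTS1, GSPT1 and DENR had averages of 0.10 (SE 0.13, edgeR adjusted p = 0.632), 0.09 (SE 0.14, edgeR adjusted p = 0.7) and -0.10 (SE 0.18, edgeR adjusted p = 0.744). Of 7 accessory initiation genes 1 fell, ABCF1 (-0.36 (SE 0.13, edgeR adjusted p = 0.0434)), and MTIF2, DDX3X and DHX29 had averages of -0.28 (SE 0.12, edgeR adjusted p = 0.0982), -0.23 (SE 0.10, edgeR adjusted p = 0.124) and -0.21 (SE 0.12, edgeR adjusted p = 0.236), while with library totals alone these 4 and MTIF3 passed as lower. Under the conceptus block LARP1 and ABCF1 did not pass (edgeR adjusted p 0.156 and 0.113). In IVD tissue alone 3 elongation and 1 cap-binding gene rose, 2 eIF2 phosphorylation, 1 cap-binding, 1 termination and 1 accessory gene fell, and in IVP tissue none of the 5 lists held a call. With TMM factors as covariate none of the 5 lists held a call in the average change.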

How the data were processed

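The starting data were gene counts from poly(A)-enriched, stranded RNA libraries of day 16 conceptus sections. According to the labels and the study's methods, the authors cleaned the reads in Trimmomatic, mapped them to ARS-UCD1.2 (HISAT2 for conceptus, STAR for endometrium, which is not used here) and deposited the unnormalized featureCounts counts. Tool versions, how strand was used in counting and what was done with reads of several alignments are not given in the sources used here. Of 16149 genes 2031 lack a symbol, and since the lowest mean count is 2.48, rarely counted genes were taken out earlier. Groups follow the sample titles, also for replicate 1 of IVP co-culture, whose treatment entry speaks of medium only. Within groups, no pair of libraries agreed within sampling noise (chi-square of at least 119 per degree of freedom).

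The test was edgeR 4.0.16 (R 4.3.3): genes kept by filterByExpr (15942, settings 10 and 15), TMM scaling, 1 mean for each of the 4 groups over 29 libraries, the quasi-likelihood F test and Benjamini-Hochberg adjustment across the tested genes (FDR 0.05). A prior count of 1 entered log2 CPM. The average co-culture change is the mean of the IVP and IVD contrasts. Pairing was by conceptus, which the column codes name. After group means were removed, its 16 library pairs across cultures correlated at 0.120 to 0.817 (median 0.588, 1000 most variable genes), all over 0.1, whereas 4 of 13 pairs with equal title numbers did (median -0.317). Changes within a conceptus were tested by exact sign flips and paralog ratios by exact permutation. The members and gene lists were chosen with earlier results of these data known. By the rule used, values and tests are given for up to 5 members per factor group by p in the average change, up to 3 by p in IVP against IVD co-culture, the paralog sets, EIF2B5, EIF2S1, EIF6, every member past FDR and up to 4 genes of each other list. The test was tried on simulated data first.

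The alternatives comprised RLE and upper-quartile scaling, 2 other filters (none, or 1 CPM in the mean), fits of only the compared groups, blocks by conceptus and by title number, sums per conceptus, limma 3.58.1 voom with random conceptus effects (correlation 0.281), DESeq2 1.42.0 (alpha 0.01 in its filtering), a TMM covariate, a residual factor of unwanted variation, and omission of each library. Library totals alone, conceptus means of ratios and omissions for the ratios were chosen after seeing the data. No sequence or coordinate is printed, since no genome of the files' build was used here.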

Additional observations from a re-analysis of the deposited data

Results flagged for a closer look

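Of 176 sets of 1 factor in 1 group, 11 held a library farther from the others than Dixon's 95% limit, where chance gives about 1 in 20. IVD co-culture replicate 8 stood high for EIF1B (98.3 CPM, the others 41.5 to 63.0) and EIF3E (738 CPM, the others 312 to 426). IVD co-culture replicate 5 stood high for EIF2B1 (43.8 CPM, the others 12.8 to 22.5), EIF2B2 (55.5 CPM, the others 28.5 to 37.9) and EIF4ENIF1 (39.6 CPM, the others 20.8 to 27.1). IVD mono-culture replicate 1 stood high for EIF3B (313 CPM, the others 169.9 to 223), EIF4G1 (809.8 CPM, the others 420.3 to 555) and EIF4G2 (1011 CPM, the others 829.6 to 903). IVP mono-culture replicate 2 stood high for EIF2S2 (365 CPM, the others 245 to 262). IVD mono-culture replicate 8 stood low for EIF5A2 (2.44 CPM, the others 4.56 to 5.95) and IVP co-culture replicate 7 for EIF6 (53.6 CPM, the others 76.3 to 92.7).

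Under TMM scaling EIF4G2 was higher in co-culture within all 4 IVP conceptuses and lower within all 7 IVD conceptuses, with a difference of 0.45 between the mean log2 changes (IVP minus IVD). With library totals alone its change turned negative in most IVP conceptuses. How many of all genes split this way was not counted, so the split has no background share beside it. The within-conceptus means were given no permutation test of their own. Over libraries, edgeR's test of the difference of changes gave 0.51 (SE 0.22) with an adjusted p of 1.00, so it did not pass, and with the conceptus as a replicate block 0 factors passed in that test.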

How the results depend on the processing

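Against 5 factors in IVD tissue, upper-quartile scaling called 8, a mean CPM of at least 1 called 9, sums per conceptus 8 (7 higher), limma voom 9 (8 higher), DESeq2 12 (11 higher), a factor of unwanted variation 13 (9 higher), library totals alone 3 (2 higher), the title number as a replicate block 1, the conceptus as a replicate block 0 and the TMM covariate 0. In IVP tissue, against 0, sums per conceptus called 1, DESeq2 3 and the unwanted factor 1, and in IVP against IVD co-culture DESeq2 and the unwanted factor each called 1. The 14 average calls became 9 with either replicate block and 0 with the TMM covariate, and ranged from 11 to 19 without any 1 library. Leaving out 1 library gave 0 to 11 calls in IVD tissue, 0 to 3 in IVP tissue and 0 to 1 in IVP against IVD co-culture. The IVD calls fell to 0 without any 1 of IVD co-culture replicates 7 and 8 and IVD mono-culture replicates 1 and 4. They rose to 11 without IVD co-culture replicate 5. The 3 IVP calls came without IVP co-culture replicate 2. The call in IVP against IVD co-culture came without either of IVP co-culture replicates 2 and 3.

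Over all genes, the 1009 IVD calls became 206 (conceptus block), 555 (title block), 1843 (voom), 1941 (DESeq2), 191 (TMM covariate) and 2433 (unwanted factor), with 411 to 1719 without any 1 library. They became 1094 with upper-quartile scaling, 1279 with a mean CPM of at least 1, 1312 with sums per conceptus and 902 with library totals alone. The 0 IVP calls became 107 (sums), 321 (DESeq2) and 113 (unwanted factor), and 0 to 208 without 1 library. The 4 calls of IVP against IVD co-culture became 0 (compared groups alone, title block, TMM covariate), 15 (sums), 2 (voom), 152 (DESeq2), 146 (unwanted factor) and 1 (totals), and 0 to 107 without 1 library, and DESeq2 called 1 gene in mono-culture. The 3006 average calls became 1995 (title block), 2 (TMM covariate) and 4600 (unwanted factor). RLE split the IVD calls into 608 higher and 456 lower against 496 and 513 with TMM, and library totals into 216 and 686, and for the average into 544 and 3419 against 1461 and 1545. No result turned its direction while called, and the cause of these shifts was not tested. The conceptus block cannot be fitted to IVP against IVD. The factors had counts of at least 147 in every library, which came from 13 conceptuses.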
